A study of Mus musculus with 10 samples.

Results

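The genes of ileal bile acid uptake and *Fgf15* were 7 genes chosen by name, out of 47069 genes in the deposited table, 26392 of which had at least 1 count. They were *Slc10a2*, *Fabp6*, *Slc51a*, *Slc51b*, *Nr1h4*, *Nr0b2* and *Fgf15*, and each had a single row in the table. RNA-seq was performed on 10 libraries of C57BL/6 mouse intestinal organoids after 50 days in Matrigel with Noggin, EGF and R-spondin-1, with 2 libraries in each of 5 groups. By the study's methods all groups, controls included, carried *Lgr5-EGFP-CreERT2* and *Ppp2r1a* flox/flox, so that tamoxifen (TAM) switches on a Cre made under the *Lgr5* promoter of crypt stem cells and removes the scaffold subunit of the phosphatase PP2A. Control organoids received saline, DMBA organoids the polycyclic carcinogen dimethylbenzanthracene (labelled long), 2 groups received tamoxifen (labelled short and long), and DMBA+TAM organoids received both. What short and long mean is not given in the sources used here, and nothing in them says that the 2 libraries of a group came from separate cultures or animals, so p-values measure only the spread between these libraries, which may be technical.

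Bile acids are recovered in the last stretch of the small intestine, the terminal ileum, and returned to the liver. SLC10A2 takes them up at the brush border, FABP6 carries them through the cytosol, and a pair of proteins, SLC51A and SLC51B, lets them out toward the blood. Inside the cell they bind the nuclear receptor FXR, encoded by *Nr1h4*, which is known to switch on *Fabp6*, *Slc51a*, *Slc51b*, the corepressor gene *Nr0b2* (SHP) and *Fgf15*, a hormone that tells the liver to make less bile acid.

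Library totals ranged from 8828247 to 10923673 counts in 8 libraries and were 1592366 and 1915270 in DMBA+TAM. Levels are given as normalized CPM, CPM of a library total scaled by edgeR's TMM factors, with mean ± SD of 2 libraries where a group is summarised. *Ppp2r1a*, the gene that tamoxifen is meant to delete, had 126 ± 4.56 normalized CPM in control, 139 ± 11.9 in TAM short, 163 ± 8.09 in TAM long, 160 ± 10.3 in DMBA and 131 ± 2.63 in DMBA+TAM. No tamoxifen group lay below the control. These counts sum over all exons of the gene, while by the study's methods loxP sites flank only some of them. Whole-gene counts of bulk RNA thus cannot show whether the flanked exons were removed. The paper examined PPP2R1A protein by western blot in sorted Lgr5+ and Lgr5- cells.

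The labels call all libraries intestinal organoid, and 10 general epithelial genes such as *Epcam* summed to between 13570 and 23100 normalized CPM in the 8 libraries outside DMBA+TAM. In DMBA+TAM the same sum was 22.9 and 33.3, and 10 fibroblast genes such as *Col1a1* summed to 32750 and 33570, against 688.8 to 2420 elsewhere. Genes of intestinal segments also differed between groups. *Lct*, the lactase of the upper small intestine, had 1280 and 1555 normalized CPM in control, 3.05 and 0.883 in TAM short and at most 0.268 in the other 6 libraries. *Car1*, a carbonic anhydrase of the colon, had 6086 and 1145 in DMBA and 11130 and 2843 in TAM long, and at most 4.22 elsewhere. The libraries are titled NS in control, NL in DMBA, DSS_S in TAM short, DSS_L in TAM long and Lgr5 in DMBA+TAM, each with a replicate number. The labels spell out none of these titles, and the groups here follow the descriptions, which call the treatment of both DSS groups dosage-sensitive TAM. In its main text the study's paper uses DSS only for dextran sulfate sodium, in a sentence on colitis in mice. Whether the DSS of the titles stands for dosage-sensitive TAM or for another treatment is not given in the sources used here. Every value of TAM short and TAM long rests on the descriptions. The summed 8 colon genes split the libraries as the S and L of the titles do, at 42.3 to 57.8 in NS and DSS_S and 3513 to 15350 in NL and DSS_L. Not every single gene did so. The colon gene *Fxyd4* had 0.179 in DMBA replicate 1 and 0.241 in control replicate 2, and *Hoxb13* and *Slc37a2* were not called in TAM long against control. Segment of origin and treatment cannot be told apart in these groups, and in bulk RNA neither can fewer cells of a type and less RNA per cell.

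**Figure D1:**
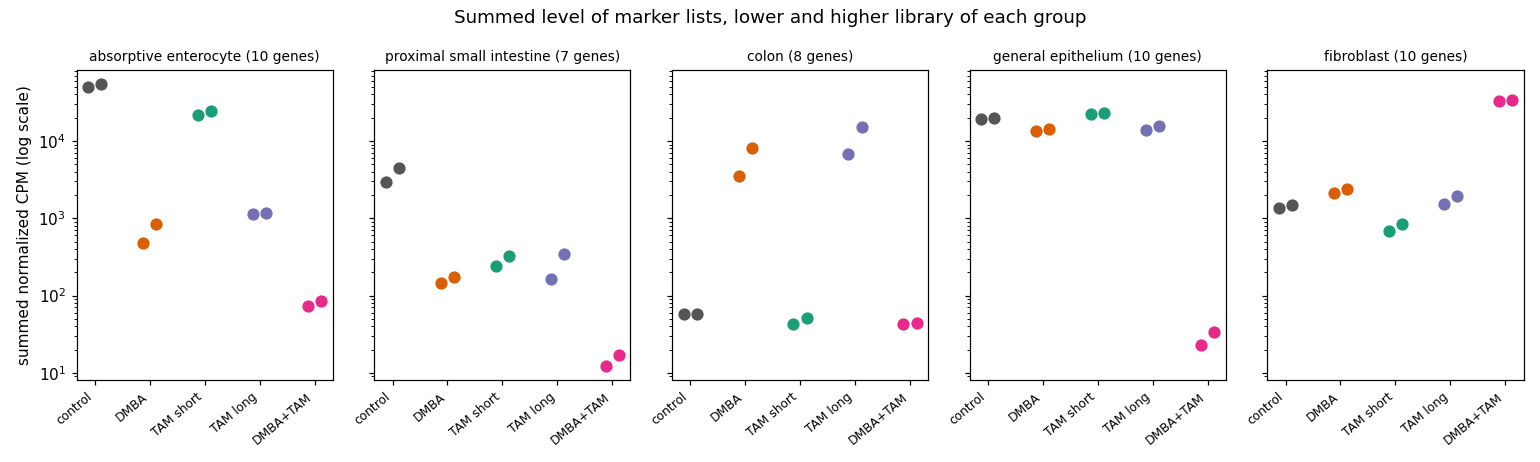
Summed normalized CPM (log axis) of 5 marker lists in the lower and the higher library of each group. Epithelial genes sum to 22.9 and 33.3 in DMBA+TAM, and the 8 colon genes sum to between 3513 and 15350 in DMBA and TAM long but to at most 57.8 in the other groups.

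The 7 genes stood highest in the TAM short libraries. Together they summed to 9249 and 10660 normalized CPM there, against 432.5 and 475.2 in control, 48.3 and 141.8 in DMBA, 86.8 and 345.7 in TAM long, and 1.06 and 2.2 in DMBA+TAM. Most of the TAM short sum was *Fabp6*. Against control, 5 of 10 fibroblast genes were called lower and 1 higher in TAM short, with sums of 688.8 and 841.3 against 1361 and 1500. The immune gene *Ptprc* was higher (log2 1.43, adjusted p = 0.0319), 1 of 6 immune genes called. Of all genes 7.8% were called lower and 6.52% higher in this comparison. The part of these cell types in the results was not tested.

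**Figure D2:**
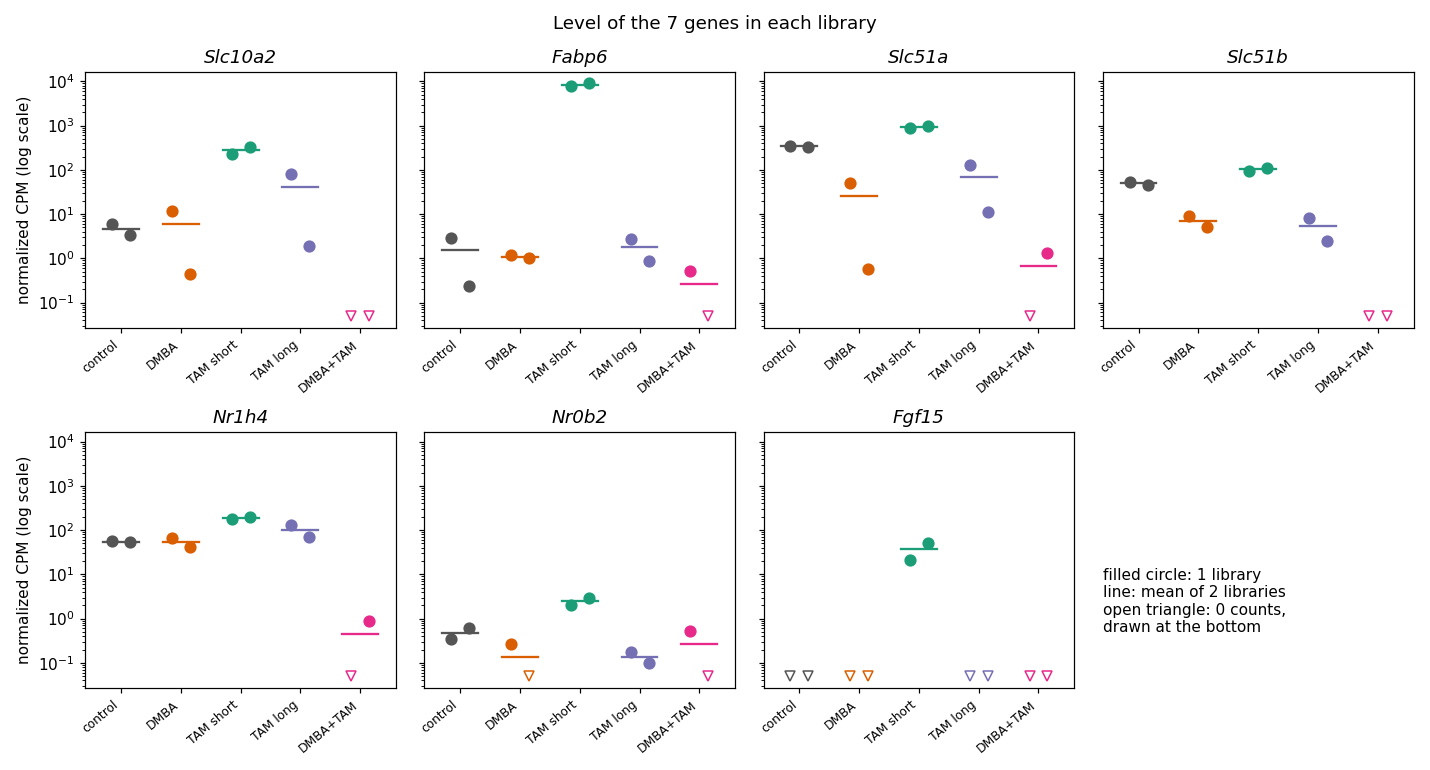
Normalized CPM (log axis) of each of the 7 genes, 1 panel a gene, with 1 circle per library, a line at the mean of 2 libraries, and an open triangle at the bottom of the axis for a library with 0 counts. *Fabp6* stands at 7847 and 8965 in TAM short and at no more than 2.83 elsewhere, *Fgf15* has counts only in TAM short, and *Slc10a2* and *Slc51b* have 0 counts in both DMBA+TAM libraries.

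*Slc10a2* encodes the sodium-dependent transporter that brings bile acids into the ileal enterocyte. It lies on the minus strand of chromosome 8 of GRCm38, from 5085623 to 5105232. The table gave it 52 and 28 counts in control, 132 and 4 in DMBA, 2058 and 2643 in TAM short, 918 and 19 in TAM long, and 0 in both DMBA+TAM libraries. As normalized CPM this was 5.88 and 3.37 in control, 11.8 and 0.449 in DMBA, 232.5 and 333.5 in TAM short, and 79.2 and 1.87 in TAM long. Both TAM short libraries were above every other library, and the TAM long and DMBA groups each spanned both control values. TAM short was 61.2-fold above control (log2 fold change 5.92, SE 1.48, edgeR's quasi-likelihood adjusted p = 0.0303), a call that was lost without any 1 of these 4 libraries (adjusted p from 0.0957 to 0.225) and with limma on log2(FPKM + 0.1) (adjusted p = 0.0661). TAM long was 8.76-fold above control on average and did not pass (log2 3.13, SE 1.4, adjusted p = 0.0995), but it turned to a log2 of -1.31 without TAM long replicate 1 and passed without TAM long replicate 2 (log2 4.08, adjusted p = 0.0157) and with no filter on low counts.

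The 250 bases before the *Slc10a2* start, from RefSeq on GRCm38.p6 (chr8:5105288-5105537, minus strand), are shown since HNF1 factors are known to act on this gene. Capitals mark a match, with 1 mismatch, to the inverted repeat GTTAAT, 1 base, ATTAAC, searched on both strands, a motif chosen after the sequences were seen. It lies 224 to 212 bases before the start, and 0.189% of the 32851 windows of this length hold such a match.
Slc10a2: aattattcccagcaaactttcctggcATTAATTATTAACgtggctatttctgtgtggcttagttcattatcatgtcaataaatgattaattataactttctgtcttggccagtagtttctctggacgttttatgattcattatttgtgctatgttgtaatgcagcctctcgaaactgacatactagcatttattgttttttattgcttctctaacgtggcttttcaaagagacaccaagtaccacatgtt

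*Fabp6* encodes the ileal bile acid binding protein and lies on the minus strand of chromosome 11, from 43596049 to 43601540. The TAM short libraries held 69451 and 71046 of its counts. The control libraries held 25 and 2, DMBA 13 and 9, TAM long 32 and 9, and DMBA+TAM 1 and 0. The TAM short libraries stood alone, and the other 8 libraries all lay within 0 to 32 counts. In FPKM, which divides by gene length, *Fabp6* was the gene of rank 2 of the whole table in both TAM short libraries, with 14740 and 16800 FPKM, and it took 0.706% and 0.805% of all their counts. TAM short was 5480-fold above control (log2 12.38, SE 0.74, adjusted p = 1.67e-05), and this call held under every alternative run. The size of the rise depended on the control library, with a log2 of 15.0 without control replicate 1 and 11.53 without control replicate 2. TAM long did not pass against control (log2 0.25, SE 0.73, adjusted p = 0.804), and neither did DMBA (log2 -0.51, SE 0.81, adjusted p = 0.633).

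The window before the *Fabp6* start (chr11:43601563-43601812, minus strand, RefSeq on GRCm38.p6) is shown since this gene differed most between groups and FXR is known to bind the inverted repeat AGGTCA, 1 base, TGACCT. Capitals mark 2 matches with 2 mismatches each, at 222 to 210 and at 142 to 130 bases before the start. Allowing 2 mismatches was chosen after the sequences were seen. Such a match is in 0.959% of all windows, and *Fabp6* was the only one of the 6 members with a window to hold one. With no mismatch or with 1, the shares were 0.00609% and 0.0792%, and none of the 6 members matched.
Fabp6: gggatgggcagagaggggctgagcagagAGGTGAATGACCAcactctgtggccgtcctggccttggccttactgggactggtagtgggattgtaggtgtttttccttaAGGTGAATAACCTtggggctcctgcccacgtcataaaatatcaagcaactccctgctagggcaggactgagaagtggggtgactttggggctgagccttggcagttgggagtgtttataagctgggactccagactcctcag

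Single copies of AGGTCA, on either strand, were found 203 to 198 bases before the start of *Slc51b*, 58 to 53 before *Slc51a* and 214 to 209 before the start that RefSeq lists for *Nr1h4*. A copy of these letters is in 14% of all windows of 250 bases, and 3 of 6 members hold 1. The GATA letters AGATAA were found in *Nr1h4*, where 9.99% of all windows hold them. The windows of both exporter subunits (*Slc51a* at chr16:32487880-32488129 and *Slc51b* at chr9:65422774-65423023, minus strand) are shown for comparison with *Fabp6*, with AGGTCA or its reverse in capitals.
Slc51a: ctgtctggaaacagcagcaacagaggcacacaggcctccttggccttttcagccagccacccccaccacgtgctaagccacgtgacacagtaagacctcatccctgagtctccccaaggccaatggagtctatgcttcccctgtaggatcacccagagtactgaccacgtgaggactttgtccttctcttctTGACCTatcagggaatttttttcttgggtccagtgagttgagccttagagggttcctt
Slc51b: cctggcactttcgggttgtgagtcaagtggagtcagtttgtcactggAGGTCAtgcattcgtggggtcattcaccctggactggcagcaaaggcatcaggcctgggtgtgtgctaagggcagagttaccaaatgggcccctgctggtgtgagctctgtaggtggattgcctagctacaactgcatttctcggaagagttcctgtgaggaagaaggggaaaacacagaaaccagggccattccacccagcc

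*Slc51a* and *Slc51b* encode the alpha and beta subunits of the exporter at the basal side of the cell, and neither works without the other. *Slc51a* lies on the minus strand of chromosome 16, from 32475522 to 32487879, and *Slc51b* on the minus strand of chromosome 9, from 65412753 to 65422773. *Slc51a* had 355.6 and 330.1 normalized CPM in control, 51.5 and 0.562 in DMBA, 876.2 and 991.4 in TAM short, 126.4 and 11.4 in TAM long, and 0 and 1.32 in DMBA+TAM. Both libraries of TAM short were above control and both of each other group below it. *Slc51b* had 54.1 and 44.9 normalized CPM in control, 9.29 and 5.05 in DMBA, 94.2 and 112.1 in TAM short, 8.37 and 2.46 in TAM long, and 0 in DMBA+TAM. Both TAM short libraries were again above control and the libraries of the other groups below it, and the DMBA and TAM long values overlapped for both subunits.

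In DMBA against control both subunits fell. All 10 absorptive enterocyte genes of the marker list also fell there and in TAM long, where 23.3% and 22.8% of all genes did, with sums of 476.8 and 846.9 normalized CPM in DMBA and 1145 and 1165 in TAM long against 50310 and 55070 in control, and their part in the result was not tested. *Slc51a* fell by 3.7 on the log2 scale (SE 1.3, adjusted p = 0.0395), and *Slc51b* fell by 2.77 (SE 0.44, adjusted p = 0.000973). The log2 of *Slc51a* was -9.24 without DMBA replicate 1 and -2.74 without DMBA replicate 2. The *Slc51a* call was lost with DESeq2 (adjusted p = 0.0859), with library size only, with limma on log2(FPKM + 0.1), with only the 2 groups fitted, and without either control library. In TAM long against control *Slc51b* fell by 3.17 (SE 0.45, adjusted p = 0.000548). Its log2 was -4.33 without TAM long replicate 1 and -2.57 without TAM long replicate 2. *Slc51a* had a log2 fold change of -2.31 there, which did not pass (SE 1.21, adjusted p = 0.147), and -1.45 without TAM long replicate 2. It passed without TAM long replicate 1 (log2 -4.91, adjusted p = 0.0475), with the replicate block (log2 -3.06, adjusted p = 0.043), with thinned counts (adjusted p = 0.0338) and with no filter on low counts. In TAM short against control neither passed, with log2 1.45 for *Slc51a* (SE 1.17, adjusted p = 0.467) and 1.06 for *Slc51b* (SE 0.39, adjusted p = 0.107), although all TAM short values were above both control values. The standard errors of the main fit use the spread within all 5 groups, not within these 2 alone. With only these 2 groups in the fit, or with no filter on low counts, both passed.

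On the FPKM scale *Slc51a* was 2.01 and 2.24 times *Slc51b* in control, 2.84 and 2.7 times in TAM short, and 4.61 and 1.42 times in TAM long. In DMBA the ratio was 1.69 in replicate 1 and 0.0339 in replicate 2, where *Slc51a* had 5 counts and *Slc51b* had 45. The alpha subunit was thus the more abundant transcript in all libraries of control, TAM short and TAM long. By GENCODE gene models *Slc51a* shares 567 of its 3198 exon bases with *Pcyt1a* on the other strand. *Slc51b* shares 91 of 709 with *Rasl12*. The deposited table gives them shorter lengths, 1600 and 488 bases, so some shared bases may lie outside the models that were counted. The library kit named in the labels does not mark strand, so reads of such shared bases cannot be told apart.

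**Figure D3:**
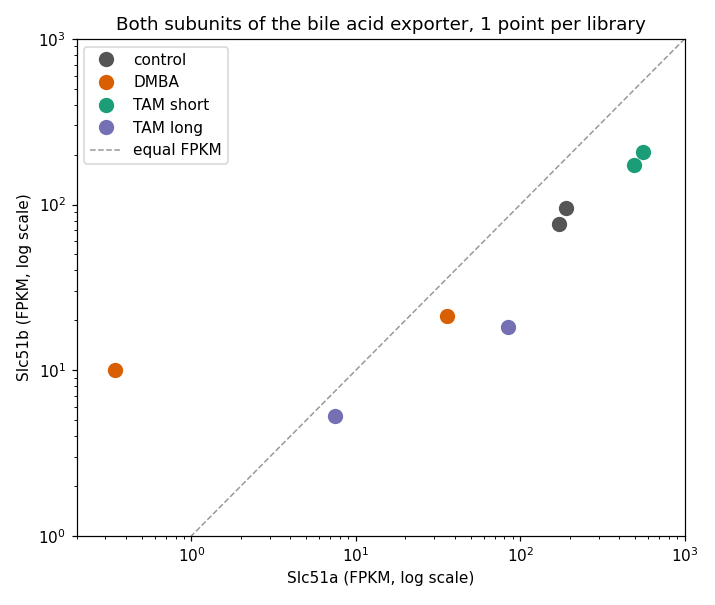
FPKM of *Slc51b* against FPKM of *Slc51a*, both on log axes, with 1 point per library and a dashed line where both are equal. The DMBA+TAM libraries are left out since at least one subunit had 0 counts, and DMBA replicate 2 is the single point above the line, with 0.341 FPKM of *Slc51a* and 10.1 of *Slc51b*.

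*Nr1h4*, the gene of the bile acid receptor FXR, lies on the minus strand of chromosome 10, from 89454234 to 89533585. It had 56.5 and 53.2 normalized CPM in control, 67.8 and 41.2 in DMBA, 176 and 200.6 in TAM short, 128.8 and 70.1 in TAM long, and 0 and 0.881 in DMBA+TAM. Of the 7 genes it varied least outside DMBA+TAM. TAM short was 3.43-fold above control (log2 1.78, SE 0.3, adjusted p = 0.00451) and TAM long 1.81-fold (log2 0.86, SE 0.3, adjusted p = 0.0403). The DMBA libraries lay on either side of the control values (log2 -0.01, SE 0.3, adjusted p = 0.99). The rise in TAM long was lost without either control library, without TAM long replicate 1 (log2 0.35, adjusted p = 0.405) and with limma on log2(FPKM + 0.1), and the rise in TAM short without either control library, without TAM short replicate 2 and with the same limma fit (adjusted p from 0.054 to 0.16).

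*Nr0b2*, which encodes the corepressor SHP, lies on the plus strand of chromosome 4, from 133553376 to 133556536. It was counted 3 and 5 times in control, 3 and 0 in DMBA, 18 and 23 in TAM short, 2 and 1 in TAM long, and 1 and 0 in DMBA+TAM. TAM short stood apart, with 2.47 ± 0.614 normalized CPM against 0.471 ± 0.186 in control, 5.24-fold higher, but did not pass (log2 2.36, SE 0.7, adjusted p = 0.0523). It passed with limma on log2(FPKM + 1) (adjusted p = 0.0171), with only these 2 groups fitted and with no filter on low counts. At 8 counts in all, the control level is measured loosely.

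*Fgf15*, the hormone that the ileum sends to the liver, lies on the plus strand of chromosome 7, from 144896532 to 144900953. It had 188 and 415 counts in the TAM short libraries (21.2 and 52.4 normalized CPM, 10.6 and 26 FPKM) and 0 counts in each of the other 8. Set against the level of 3 counts per library, TAM short was at least 105-fold above control, and the test passed (adjusted p = 0.00237), though not with DESeq2 (adjusted p = 0.117). The replicates of TAM short differed 2.47-fold, the widest gap of the 7 genes in that group. By GENCODE gene models *Fgf15*, with a length of 1809 bases in the deposited table, shares 761 of 3058 exon bases with the antisense gene *Gm26793*. That antisense gene had 2 and 6 counts in TAM short and at most 1 elsewhere. *Fgf15* and *Nr0b2* passed the filter on low counts only through TAM short, and with those libraries left out the other 5 genes still passed. Calls of *Fgf15* and *Nr0b2* in comparisons with TAM short are thus a description, not to be read against the share of all genes.

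In TAM short against control, 4 of the 7 genes were called higher (*Slc10a2*, *Fabp6*, *Nr1h4* and *Fgf15*) and none lower. Without *Fgf15* and *Nr0b2* it was 3 of 5, where 6.52% of the 16179 genes tested were called higher. The 7 genes were chosen with earlier results of these data known, so such shares, here and below, are descriptions and no test. *Fabp6* and *Fgf15* alone were called when either control library or TAM short replicate 2 was left out. In DMBA against control 2 of the 7 were called lower, against 23.3% of all genes, and 0 higher, against 24.5%. In TAM long against control 1 was called higher and 1 lower, against 23.2% and 22.8%.

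**Figure D4:**
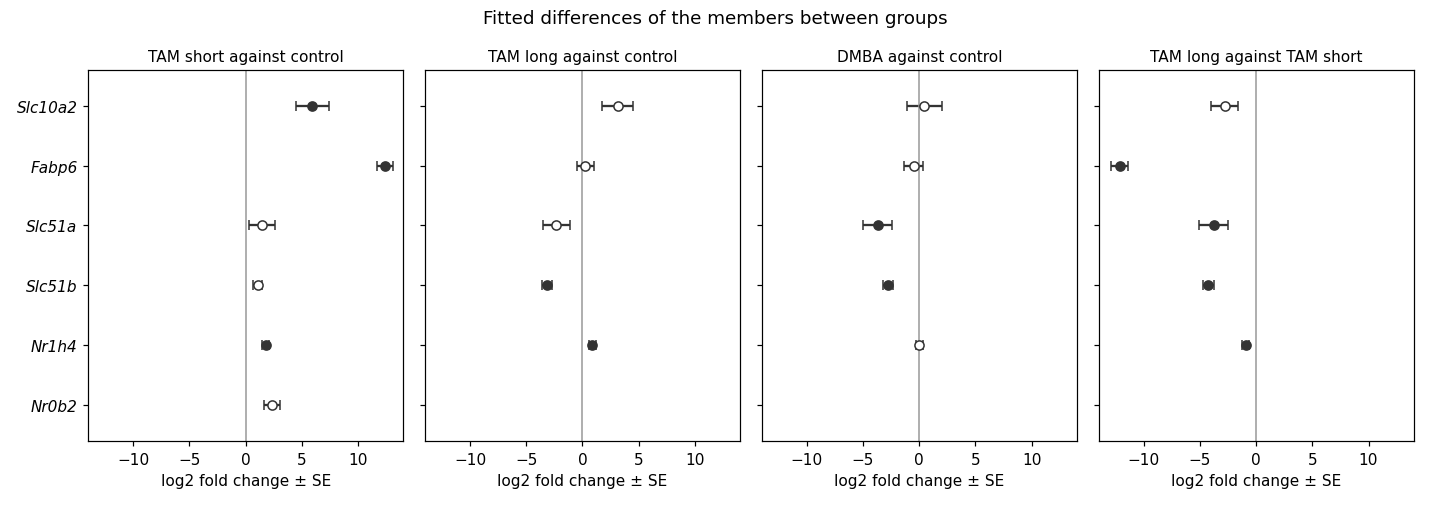
Log2 fold change with its standard error from edgeR for 6 of the genes in 4 comparisons, filled where the adjusted p is under 0.05. *Fgf15*, and *Nr0b2* where a group has 3 counts or fewer in each library, are left out since a fitted fold there depends on the prior count of the fit. *Fabp6* lies at 12.38 in TAM short against control and at -12.13 in TAM long against TAM short.

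The 2 tamoxifen groups differed in most of these genes. In TAM long against TAM short 6 of the 7 were called lower. Without *Fgf15* and *Nr0b2* it was 4 of 5, where 20.3% of all genes were. Among the marker lists 9 of 10 absorptive enterocyte and 3 of 6 immune genes were also lower. Higher there were 5 of 7 colon genes tested, 9 of 10 fibroblast genes and all 5 smooth muscle genes, where 22% of all genes were. None of these lists had a call in the other direction, and their part in the result was not tested. *Fabp6* fell by 12.13 on the log2 scale (SE 0.73, adjusted p = 3.74e-06), *Slc51b* by 4.23 (SE 0.46, adjusted p = 0.000165), *Slc51a* by 3.76 (SE 1.29, adjusted p = 0.0399) and *Nr1h4* by 0.92 (SE 0.3, adjusted p = 0.031). Without TAM long replicate 1 the log2 was -13.2 for *Fabp6*, -5.39 for *Slc51b* and -6.36 for *Slc51a*. Without TAM long replicate 2 it was -11.6, -3.64 and -2.9 in that order. *Nr0b2*, with 3 counts in TAM long and 41 in TAM short, was 17.7-fold lower (counting interval 5.66 to 89.5), and *Fgf15* at least 133-fold lower. *Slc10a2*, at a log2 of -2.79, did not pass (SE 1.2, adjusted p = 0.0922). The calls for *Slc51a* and *Fgf15* were lost with DESeq2 (adjusted p = 0.0889 and 0.0527), and that for *Nr1h4* with limma on log2(FPKM + 1) (adjusted p = 0.137). Those for *Slc51a* and *Nr1h4* were lost with library size only, with limma on log2(FPKM + 0.1), and without TAM long replicate 2 or either TAM short library, which left 4 genes called. *Slc10a2* was called as well without TAM long replicate 1 (adjusted p = 0.00755), and with thinned counts, where *Nr0b2* did not pass the filter. All 7 genes were also called lower in DMBA than in TAM short. Without *Fgf15* and *Nr0b2* it was 5 of 5, where 21.8% of all genes were. All 10 absorptive enterocyte genes were lower there too, and all 7 colon genes tested were higher, where 24.5% of all genes were. Their part in the result was not tested.

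TAM long and DMBA were compared as well. None of the 7 passed edgeR's test in either direction, where 2.7% of all genes did, so that 0 of 7 is near that share and no result about these genes, and none passed with DESeq2 or either limma fit. *Nr1h4* alone had an unadjusted p under 0.05, at a log2 of 0.87 (SE 0.3, adjusted p = 0.152), with both TAM long libraries above both DMBA libraries. With no filter on low counts 3 were called higher in TAM long (*Slc10a2*, *Slc51a* and *Nr1h4*), and without DMBA replicate 1 *Slc51a* and *Nr1h4* were.

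Within DMBA and within TAM long, replicate 1 was above replicate 2 for *Slc10a2*, *Fabp6*, *Slc51a*, *Slc51b* and *Nr1h4*. The gap was 26.2-fold and 42.4-fold for *Slc10a2* and 91.8-fold and 11.1-fold for *Slc51a*, in DMBA and TAM long respectively. It was smaller for *Slc51b* (1.84-fold and 3.41-fold) and *Nr1h4* (1.64-fold and 1.84-fold). In control and TAM short the replicates of *Slc51a*, *Slc51b* and *Nr1h4* differed by at most 1.2-fold. Colon genes also differed between these replicates, in both directions. *Car1* and the cytochrome gene *Cyp2c55* (988.1 and 185.5 normalized CPM in DMBA, 3343 and 1875 in TAM long) were higher in replicate 1. *Hoxb13*, a homeobox gene of the distal colon, was higher in replicate 2, with 186.4 against 2.59 in DMBA and 11.6 against 1.12 in TAM long. The water channel genes *Aqp8* and *Aqp4* (643.5 and 1252 in DMBA, 398.8 and 923.9 in TAM long) were higher in replicate 2 as well. Their part in the difference between replicates was not tested.

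In DMBA+TAM the 7 genes were at or near 0, with between 0 and 3 counts in each library. Against control 3 were called lower, where 35.3% of all genes were. *Slc51b* was at least 34.1-fold lower, *Slc51a* 476.5-fold lower (3 counts in all, counting interval 163 to 2311) and *Nr1h4* 114.4-fold lower (2 counts, 31.6 to 945.9). *Slc51b* and *Nr1h4* were called lower against DMBA, where 29.9% of all genes were, and *Slc51a*, *Slc51b* and *Nr1h4* against TAM long, where 29.9% also were. Against TAM short all 7 were called lower, and without *Fgf15* and *Nr0b2* 5 of 5, where 33.8% of all genes were. *Nr1h4* alone was called against TAM long without either DMBA+TAM library.

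The epithelial genes fell with them. The 10 general epithelial genes held 115 counts in both DMBA+TAM libraries together, against 282498 to 380856 in the other groups. Per 1000 counts of that list, *Slc10a2* was at 0.24 in control, 0.481 in DMBA, 12.3 in TAM short and 2.95 in TAM long. Its 0 counts in DMBA+TAM allow up to 32.6 (exact 95% interval of a ratio of counts, counting error only), so a lower level than in TAM short was not detectable per epithelial count. *Nr1h4* was at 2.83 (2.65 to 3.02) in control, 3.99 (3.76 to 4.23) in DMBA, 8.27 (7.98 to 8.56) in TAM short, 6.94 (6.65 to 7.24) in TAM long and 17.4 (2.08 to 64.3) in DMBA+TAM. On this scale the DMBA+TAM interval of *Nr1h4* took in the values of all other groups. *Slc51a* was at 17.7 in control and at 26.1 (5.3 to 78.2) in DMBA+TAM, where it rests on 3 counts. *Slc51b* was at 2.56 in control, and its 0 counts in DMBA+TAM allow up to 32.6. A fall of either subunit from control was thus not detectable per epithelial count. *Fabp6*, at 368.9 (366.6 to 371.2) in TAM short, was at 8.7 (0.218 to 49.4) in DMBA+TAM, where it rests on 1 count, while the control stood at 0.0811, DMBA at 0.0779 and TAM long at 0.129. No order of DMBA+TAM against those 3 groups is read from that count.

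The effect of DMBA with tamoxifen was also tested against its effect without, as an interaction. Taking TAM long as the tamoxifen group, 1 of the 7 genes was called (*Nr1h4*, lower), where 26.5% of all genes were called lower. Taking TAM short, 4 were called lower (*Slc10a2*, *Fabp6*, *Slc51b* and *Nr1h4*), where 23% of all genes were. All 10 general epithelial genes were also called lower in both interactions, and their part in the result was not tested. The labels do not say which tamoxifen group DMBA+TAM matches.

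Among 7 other bile acid transporters, 3 had enough counts to be tested. *Abcc2*, which exports conjugates at the brush border, had 281.4 and 306.5 normalized CPM in control, 46.3 and 52 in TAM short, at most 1.81 in DMBA and TAM long and 0 in DMBA+TAM. It was called lower than control in all 4 groups, where 7.8% of all genes were called lower in TAM short. In TAM short its direction was thus opposite to that of *Slc10a2* and *Fabp6* (log2 -2.58, SE 0.27, adjusted p = 0.000482). *Abcc3*, a basal exporter, rose in DMBA (log2 1.80, adjusted p = 0.000228) and TAM long (log2 1.74, adjusted p = 0.000296). It had 72.1 and 87.8 in control and between 222.9 and 334.8 in those 4 libraries. Of all genes 24.5% were called higher in DMBA and 23.2% in TAM long. *Abcc4* rose in DMBA (log2 0.89, adjusted p = 0.0135) and in DMBA+TAM (log2 1.92, adjusted p = 0.000112), where 24.5% and 29% of all genes did. The hepatic transporters *Slc10a1*, *Abcb11*, *Slco1a4* and *Slco1b2* were at most 1.58 normalized CPM in any library and were not tested.

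Of 10 genes of bile acid synthesis and conjugation 5 were tested. *Cyp7a1*, the rate-limiting enzyme that liver cells shut down in response to *Fgf15*, had 0 counts in all 10 libraries. In TAM short 1 of the 5 was called lower and none higher, where 7.8% and 6.52% of all genes were, with a median log2 of -0.48 against -0.04 over all genes tested. That gene was *Cyp27a1*, the first enzyme of the alternative synthesis pathway, at 98.4 in both control libraries and 21.7 and 19.7 in TAM short (log2 -2.25, SE 0.22, adjusted p = 0.000231). It fell in all other groups as well, and *Amacr*, a racemase acting on bile acid precursors, fell in DMBA, TAM long and DMBA+TAM, where 23.3%, 22.8% and 35.3% of all genes fell. In DMBA+TAM 4 of the 5 were called lower and 1 higher, where 29% of all genes were called higher. The 1 that rose was *Cyp7b1*, at 2.15 and 2.05 in control and 22.2 and 20.3 in DMBA+TAM (log2 3.33, adjusted p = 0.00035). *Baat*, which joins bile acids to taurine, had 1.92 and 2.17 in control and 4.41 and 4.92 in TAM short and did not pass (adjusted p = 0.0661).

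Of 10 other bile acid receptors, nuclear receptor partners and *Fgf15* receptor genes, 9 were tested. In TAM short 1 was called lower and none higher (median log2 0.08), against the same shares of all genes. The receptor partner *Rxra* had 159.8 and 170.3 in control and 160.9 and 187.9 in TAM short, and the vitamin D receptor gene *Vdr* 299.5 and 316.6 against 270.7 and 295.7. *Nr1i3*, the nuclear receptor CAR, had 5.77 and 3.01 in control and 0 in TAM short. In DMBA 5 of the 9 rose and 3 fell, where 24.5% of all genes rose and 23.3% fell. Among the 5 was *Fgfr4*, the liver receptor of *Fgf15*, with 14.2 and 10.6 in DMBA against 1.47 and 1.32 in control (log2 3.13, SE 0.36, adjusted p = 9.62e-05). Its partner *Klb* had 0.982 and 6.07 in DMBA and 0.113 and 0.12 in control. *Nr1i2*, the nuclear receptor PXR, fell in DMBA and TAM long, with 53.1 to 85.9 in those 4 libraries against 159.4 and 162.4 in control.

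All 10 transcription factors of the list of those known to act on ileal bile acid genes were tested. In TAM short 1 rose (*Cdx1*, an intestinal homeobox gene, log2 0.75, adjusted p = 0.00929) and 2 fell, where 6.52% of all genes rose and 7.8% fell. *Gata4*, which is known to hold *Slc10a2* down in the upper small intestine, had 136 and 152.8 in control and 36.9 and 13.6 in TAM short (log2 -2.51, SE 0.55, adjusted p = 0.0175). *Gata6* fell less, by 0.65 (adjusted p = 0.0379). *Hnf4a* had 975.4 and 941.5 in control and 1335 and 1363 in TAM short and did not pass. In TAM long *Gata4* had 2.85 and 0.983, and *Slc10a2* had 79.2 and 1.87. The part of *Gata4* in the levels of *Slc10a2* was not tested. *Hnf4g*, a nuclear receptor of enterocytes, fell in DMBA and TAM long to between 15.7 and 34.1 from 374.5 and 329.5 in control. In DMBA+TAM all 10 fell, where 35.3% of all genes did.

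**Figure D5:**
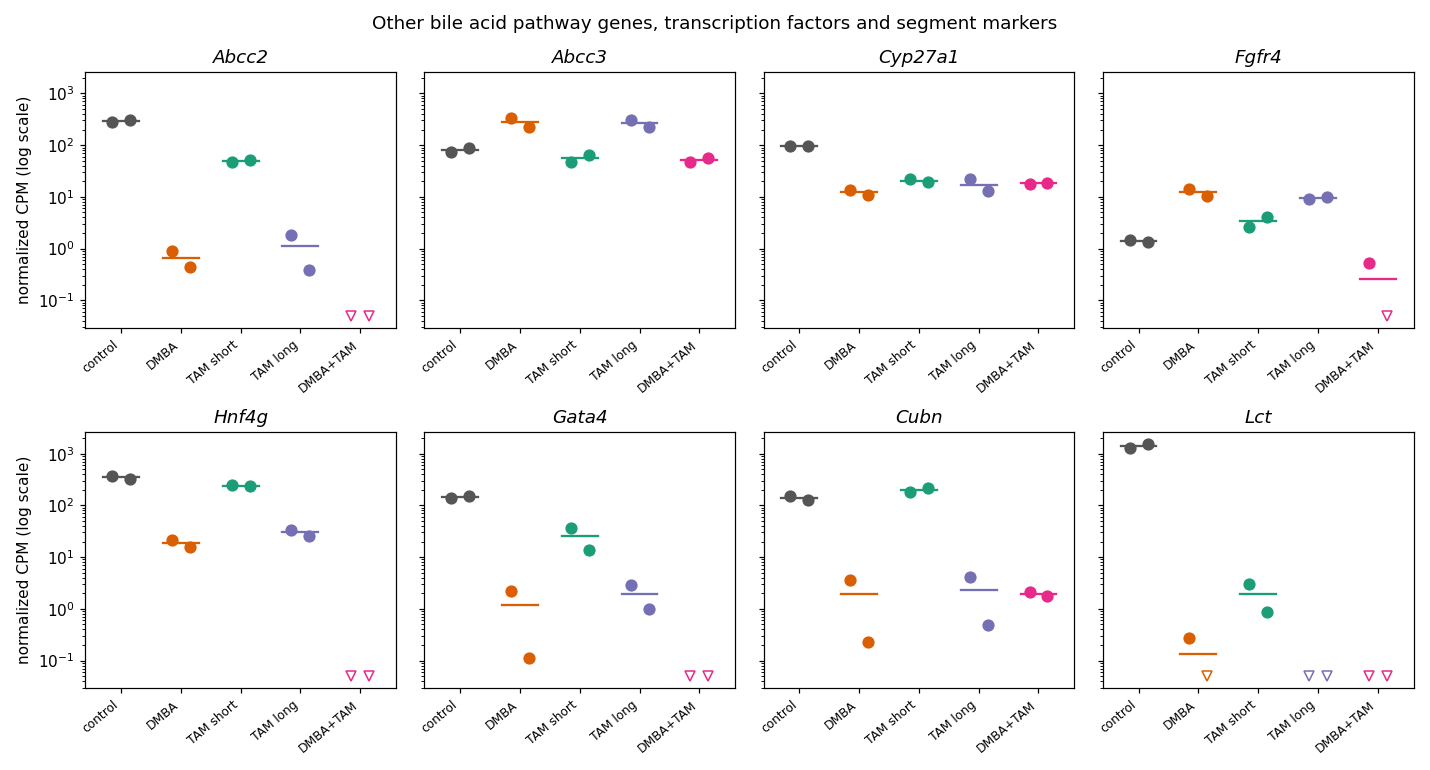
Normalized CPM (log axis) of 8 genes outside the 7, with 1 circle per library, a line at the mean of 2 libraries and an open triangle for 0 counts. *Abcc2* and *Gata4* step down from control to TAM short to DMBA and TAM long, *Abcc3* and *Fgfr4* stand highest in DMBA and TAM long, and *Cubn* is high in control and TAM short alone.

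*Cubn* and *Amn* encode the vitamin B12 receptor of the ileum. *Cubn* had 154.3 and 128.7 in control and 183.6 and 213.6 in TAM short, and *Amn* 214 and 225.7 against 128.7 and 123.7, and neither passed (adjusted p = 0.573 and 0.355). Both fell in DMBA and TAM long, where no library exceeded 12.6 and 23.3% and 22.8% of all genes fell. Of 10 absorptive enterocyte genes 6 fell in TAM short against control and none rose, where 7.8% of all genes fell and 6.52% rose, with the sum at 21440 and 24790 against 50310 and 55070 in control. *Fabp1*, the fatty acid binding protein of the upper small intestine, had 1592 and 2754 in control and 5.2 and 2.15 in TAM short. Of 7 genes of the proximal small intestine, which include *Lct* and *Fabp1*, 6 were tested, and 4 were called lower and 1 higher in TAM short. The 1 that rose was the iron exporter *Slc40a1*, with 11.2 and 10.4 in control and 218.3 and 304.5 in TAM short (log2 4.6, SE 0.37, adjusted p = 8.11e-05). *Lct*, *Fabp1* and the enterocyte sum were thus lower and *Slc40a1* higher in the group where *Fabp6* and *Fgf15* were higher, and their part in the results was not tested.

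The genes whose levels ran most like a member's were found by the root mean square difference of log2(normalized CPM + 1) over the 10 libraries, each gene centred on its own mean, among the 11885 genes that averaged 5 normalized CPM or more. For *Slc51a* the nearest was *Malrd1* (0.774), with 166.3 and 118.4 in control, 373.3 and 404 in TAM short, 24.7 and 5.8 in TAM long, and 7.77 and 0.449 in DMBA. For *Nr1h4* it was *Sgk2* (0.456), and for *Slc51b* *Trim15* (0.534). For *Slc10a2* it was the sulfate transporter gene *Slc13a1* (1.24), with 559.8 and 710.9 in TAM short and 35.8 and 33.7 in control. *Fgf15* was nearest to *Suox* (0.488), a sulfite oxidase gene with 625.5 and 776.2 in TAM short and between 11.4 and 33.6 elsewhere. For *Fabp6* the nearest, *Slc25a48*, was still 2.52 away, so none of the genes searched followed its range closely. The distances are descriptions over 10 libraries that share 5 groups.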

How the data were processed

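The authors mapped RNA-seq reads with TopHat 2.0.12 and counted them on genes with HTSeq 0.6.1, and the submitters' processing notes name the build GRCm38.p6. The strand setting is not given in the sources used here. One deposited table of 47069 genes holds the counts and FPKM of each library. Its 41 further columns hold group means and the study's own comparisons and were not used.

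The test was edgeR 4.0.16 (R 4.3.3) on the counts, with filterByExpr, TMM and a quasi-likelihood fit of 5 group means over all 10 libraries. P-values were adjusted by Benjamini-Hochberg over 16179 genes at a threshold of 0.05, after the steps had been tested on simulated data. Standard errors are the log2 fold change over the square root of F. The authors' FPKM served for comparisons between genes and, as log2 with a pseudocount of 1 or 0.1, in limma 3.58.1. A fold against 0 counts was set against 3 counts per library. Alternatives were DESeq2 1.42.0, library size only, no filter, a fit of only the groups compared, the replicate block, a fold of at least 1 on the log2 scale, limma, counts thinned to 1592366, and leaving out each library. The 7 genes and the pathway and marker lists were chosen with earlier results of these data known. Named genes are the 7, those of the lists and the genes most like each member. *Prac1* of the colon list was not found. Python 3.11.15 with pandas 2.3.3 and matplotlib 3.10.9 wrote the tables and drew the plots.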

Additional observations from a re-analysis of the deposited data

Results flagged for a closer look

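For 5 values the effect of DMBA in organoids given tamoxifen differed, by an interaction test in edgeR, from its effect in organoids given none. With TAM short as the tamoxifen group these were *Slc10a2* (log2 interaction -14.60, adjusted p = 0.0293), *Fabp6* (-14.49, adjusted p = 4.18e-05), *Slc51b* (-9.92, adjusted p = 0.00488) and *Nr1h4* (-8.56, adjusted p = 1.43e-05). With TAM long it was *Nr1h4* (-7.64, adjusted p = 3.29e-05). The sizes rest on DMBA+TAM libraries with 0 to 2 counts of these genes. They depend on the prior count of the fit, so no size is read. All 10 general epithelial genes were called lower in both interactions too, with median log2 values of -9.51 (TAM short) and -9.09 (TAM long). The general epithelial list held 115 counts in the DMBA+TAM libraries, and its part in these values was not tested. The *Slc10a2* value lost its call without either control, TAM short or DMBA+TAM library and without DMBA replicate 1.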

How the results depend on the processing

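Of 713 values of single genes under the alternatives, 690 kept their direction, and none of the 425 values that edgeR called in the main fit turned. The cause of the changes below was not tested. With no filter on low counts, edgeR gave *Slc10a2* in TAM long against control an adjusted p of 6.7e-53. The 2 TAM long libraries differed 42.4-fold for this gene, so calls gained with no filter are listed but not read as results. With 2 libraries a group, leaving 1 out assumes that the lone library varies like those of the other groups. DMBA+TAM libraries with 1592366 and 1915270 counts limit low genes most.

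The number of the 7 genes called was 2 in DMBA against control, but 1 with DESeq2, with library size only, with only the groups compared and with limma on log2(FPKM + 0.1), and from 1 to 2 with 1 library left out. In TAM long against control it was 2, but 4 with no filter on low counts, 1 where a log2 fold change of 1 or more was required and 1 with limma on log2(FPKM + 0.1), and from 1 to 3 with 1 library left out. In TAM short against control it was 4, but 7 with no filter and 7 with only the groups compared, 2 with limma on log2(FPKM + 0.1), and from 2 to 3 with 1 library left out. In TAM long against TAM short it was 6, and from 4 to 7 with 1 library left out. In DMBA+TAM against control it was 3, but 5 with no filter. For TAM long against DMBA it was 0, but 3 with no filter, and from 0 to 2 with 1 library left out. In DMBA+TAM against DMBA it was 2, but 4 with DESeq2 and 4 with no filter, and from 1 to 3 with 1 library left out. In DMBA+TAM against TAM long it was 3, but 5 with no filter, and from 1 to 4 with 1 library left out. For the interaction of DMBA and TAM long it was 1, but 2 with DESeq2, 4 with no filter and 2 with limma on log2(FPKM + 0.1), and from 1 to 3 with 1 library left out.

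Values that turned were all of genes that did not pass. In DMBA against control *Slc10a2* (log2 0.46) was -0.48 with limma on log2(FPKM + 0.1). *Fabp6* (-0.51) was 0.197 and 0.59 with limma on log2(FPKM + 1) and log2(FPKM + 0.1) and 0.54 with thinned counts. *Nr1h4* (-0.01) was 0.32 with library size only, 0.24 and 0.25 with limma and 0.47 with thinned counts. *Fabp6* in TAM long against DMBA (0.76) was -0.0183 with thinned counts. With 1 library left out, the log2 fold change in DMBA against control ran from -3.35 to 1.33 for *Slc10a2*, from -1.37 to 2.1 for *Fabp6* and from -0.44 to 0.296 for *Nr1h4*. For TAM long against control it ran from -1.31 to 4.08 for *Slc10a2* and from -0.82 to 2.86 for *Fabp6*. Between TAM long and DMBA it ran from -1.76 to 6.46 for *Slc10a2*, from -0.298 to 1.32 for *Fabp6*, from -1.21 to 6.9 for *Slc51a* and from -1.55 to 0.205 for *Slc51b*. It ran from -5.08 to 0.14 for *Nr0b2* in DMBA+TAM against control and from -10.83 to 0.34 for *Slc51a* in DMBA+TAM against DMBA, fitted values that rest on 0 to 3 counts a DMBA+TAM library, depend on the prior count and measure no fold.

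Replicates of different groups carry the same numbers. The sources used here do not say whether same-numbered libraries share a culture, an animal or a batch. The correlation of same-numbered deviations was 0.26 between DMBA and TAM long and between -0.04 and 0.09 for the other pairs of groups. With the replicate block, 7 genes were called in TAM long against TAM short in place of 6 (*Slc10a2* added) and 3 in TAM long against control in place of 2 (*Slc51a* added).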

Other observations

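Other marker lists set DMBA+TAM apart in the same libraries in which the 7 genes were at or near 0. The 6 immune genes such as *Ptprc* summed to 1167 and 1217 normalized CPM there, against 53.8 to 152.6 elsewhere, and 4 of them were called higher than control and 1 lower, where 29% of all genes were called higher and 35.3% lower. The 1 called lower was *Cd3e*, a T cell gene, with 0 in both DMBA+TAM libraries and 5.31 and 8.19 in control (adjusted p = 0.000615), while *Cd79a*, a B cell gene, had 0.528 and 0.881 against 2.04 and 10.6 and did not pass. The 5 endothelial genes summed to 557.3 and 570.1, against 56.7 to 106.6, and the 4 fat cell genes to 493 and 952.3, against 6.68 to 157.3. The 5 smooth muscle genes were instead highest in DMBA (6283 and 10450) and TAM long (7342 and 11230), against 1050 to 1950 in the other groups.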
